A study of Rattus norvegicus with 3 samples.

Results

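Cluster 13 is 1 of the 15 clusters that the authors' graph-based clustering made of the sham single-cell library, and it carries RNA of red cell precursors, early B cells and dividing cells side by side. It was taken by its number from the deposited table, with the other 14 clusters of that table as the reference. It held 11332326 of the library's 77668015 UMIs (unique molecular identifiers, each marking 1 captured RNA molecule), or 14.6%, and only cluster 3 held more, with 12790589. At least 1 UMI was found in it for 15641 of the 20896 gene names of the whole series. Its cells cannot be counted, because the table gives mean counts per cluster and no cell barcodes. Such values cannot tell whether erythroid, B and cell cycle RNA lie in the same cells or in different ones.

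Single-cell RNA was sequenced from cartilage and subchondral bone of the mandibular condyle, the bony head of the jaw joint, in wild-type SD (Sprague Dawley) rats. 24 rats formed 3 groups, and the 16 condyles of each group were pooled into 1 library, so there is no replicate. All rats had an adeno-associated virus (AAV) injected into the temporomandibular joint: Vector AAV without UAC in the sham group, and Vector AAV or miR-330 AAV together with UAC in the other groups, where UAC is unilateral anterior crossbite, an altered bite that loads the joint abnormally. The rats' age, and the promoter and target cells of the AAV, are not given in the sources used here. The labels give the cells as chondrocytes and osteoclast, but cluster 13 ranked last of the 15 clusters in the summed level of 5 chondrocyte markers, all 5 of them lower than in the other clusters.

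Red cells and B cells both arise from blood stem cells in bone marrow, a tissue that lies within subchondral bone. An erythroid progenitor that has come under the control of erythropoietin switches on the transcription factors of its lineage, divides several times, builds heme and a spectrin skeleton, and fills with globin only at the end. An early B cell assembles its heavy chain gene, tests the product with a surrogate light chain made of the Vpreb and Igll1 proteins, divides in a burst, and only later shows the receptors of a mature B cell.

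Levels are given as CPM, a gene's UMIs for every 1000000 UMIs in the cluster. Parentheses hold 95% intervals, exact Poisson for levels and ratios of UMIs and exact binomial for shares, and they reflect counting error alone and no difference between rats. A log2 ratio compares the CPM of cluster 13 with that of the other 14 clusters pooled, after 0.5 UMI is added, over genes with at least 50 UMIs in the library, and a gene is called higher or lower at a ratio of 1 or more in size. The clusters were made from the same genes, so these calls describe the cluster and carry no test. A gene can also pass the minimum of 50 UMIs through cluster 13 alone. Each gene's level is compared with its own level in other clusters, apart from the ratios between genes and the genes named as most abundant.

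Of 12956 genes, 1904 (14.7%) were called higher in cluster 13 and 3168 (24.5%) lower, and the median ratio of all genes was −0.13, the value against which the gene lists are read. The split depends on the reference: of the genes called, 37.5% were higher against the pooled clusters, but 60.7% against the median of the 14 clusters, which gives large and small clusters equal weight. Against that median 3130 genes were higher and 2023 lower, with a median of 0.08 over all genes, the values beside which its list counts are read. Of the genes called higher, 1168 also had their highest level of all 15 clusters in cluster 13. The other cluster with the highest level, above or below that of cluster 13, was cluster 3 for 953 of the 1904 genes (50.1%), cluster 11 for 331 (17.4%) and cluster 12 for 204 (10.7%). 88 genes had over 50% of the library's UMIs in cluster 13, and for these it was most often another one: cluster 14 for 28 genes (31.8%), cluster 3 for 19 (21.6%) and cluster 11 for 16 (18.2%). Cluster 3 had the highest level of Top2a, cluster 11 the highest levels of Igll1 and Dntt, and cluster 14 the highest sums of the globin and mast cell lists.

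The label's 4 markers did not move together. Epor encodes the receptor for erythropoietin. Its level was 10.5 CPM (8.70 to 12.6) in cluster 13, from 119 of the library's 181 UMIs, 10.3 (5.90 to 16.8) in cluster 14, 3.25 in cluster 15 and 1.72 in cluster 3. Clusters 13 and 14 did not differ in Epor beyond counting error, the remaining 11 clusters were at 0.792 or below, and against the other 14 pooled cluster 13 was 11.2-fold higher. Klf1, a transcription factor that switches on globin, membrane and heme genes, was at 38.6 CPM (35.0 to 42.4) in cluster 13, 48.4 (38.1 to 60.7) in cluster 14, 5.94 in cluster 3 and 4.73 in cluster 15. Of all Klf1 UMIs in the library 68.7% (64.9 to 72.3) lay in cluster 13, and of all Epor UMIs 65.7% (58.3 to 72.6). Top2a, the enzyme that untangles DNA before division, was at 633 CPM (618 to 648), second to cluster 3 with 1121 (1103 to 1139) and far above cluster 10, the next, with 108.

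Cd79b, a signalling chain of the B cell receptor, went the other way. Its level of 205 CPM (197 to 213) was lower than the pooled level of 644, a log2 ratio of −1.65. It stood between both kinds of clusters: the 9 clusters rich in B genes ran from 516 CPM in cluster 11 to 1618 in cluster 1, and the other 5 from 28.7 in cluster 12 to 93.6 in cluster 14. Epor, Klf1 and Top2a were thus called higher, and Cd79b was only above the level of clusters poor in B genes. The markers were chosen with earlier results of these data known, so these values describe the label and are no support for it.

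**Figure D1:**
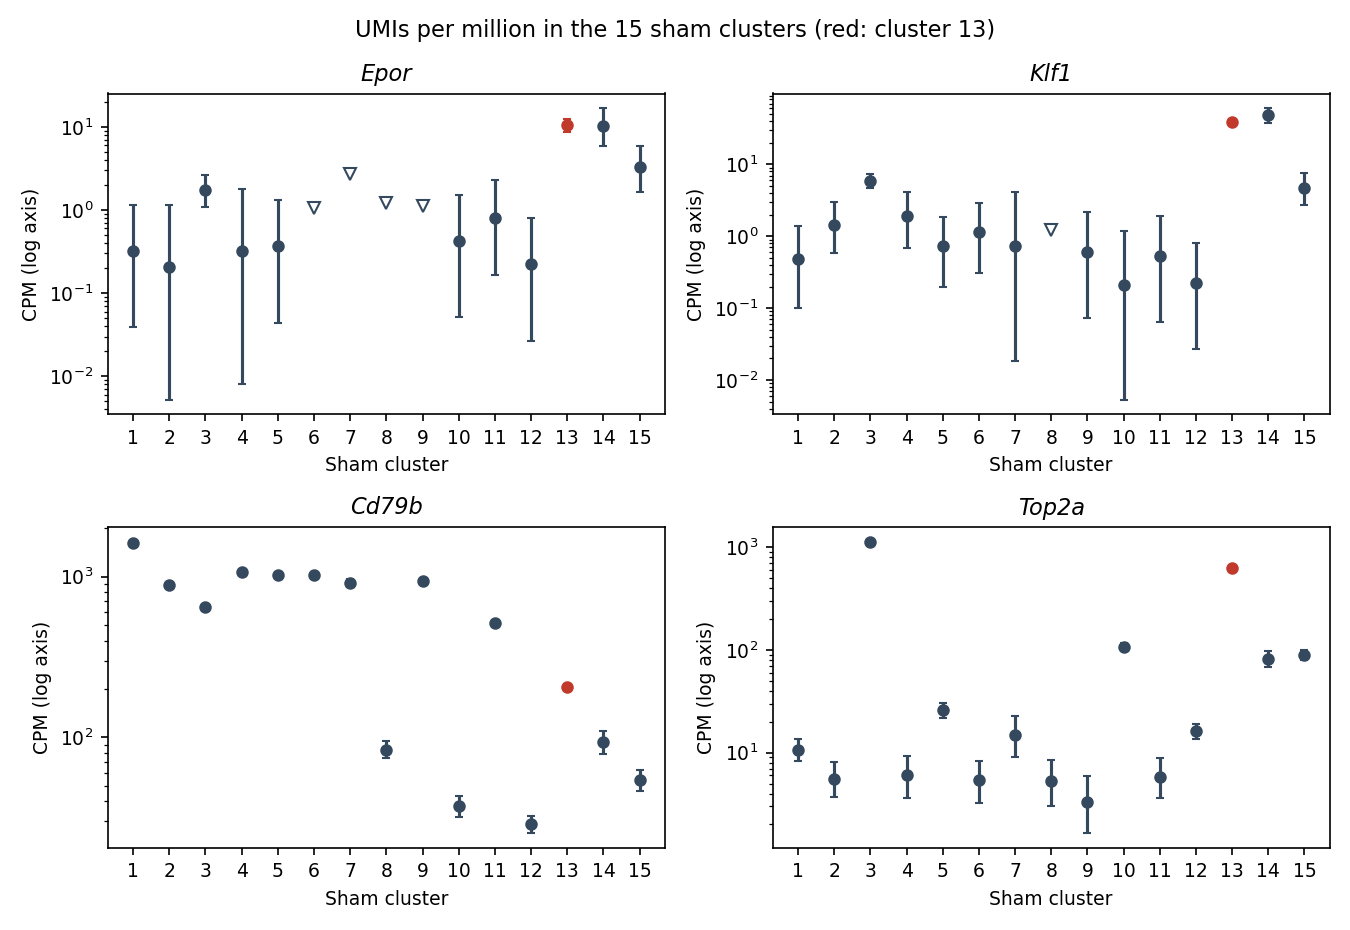
CPM (log axis) of Epor, Klf1, Cd79b and Top2a in the 15 sham clusters, with cluster 13 in red, exact Poisson 95% intervals as bars and open triangles for the upper bound where a cluster had 0 UMIs. Epor and Klf1 stand out in clusters 13 and 14, Top2a in clusters 3 and 13, and Cd79b in cluster 13 lies between clusters rich and poor in B genes.

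The fixed marker sets extend this to more genes and to other cell types. Of 8 erythroid markers tested 6 were called higher and 1 lower, and their summed level of 178 CPM ranked second of the 15 clusters. Tfrc alone gave 84.3 CPM of it, and the sums of the fuller erythroid lists below ranked lower, from 4 to 12. Of 10 cycling markers all 10 were higher, with a summed level of 2512 CPM that also ranked second. Of 9 B markers 1 was higher and 3 were lower, and the sum of 5298 CPM ranked 10 of 15. Sums of other types ranked high as well. Stem and progenitor markers ranked 2, with 3 of 4 higher and 1 lower, and megakaryocyte markers 2, with 1 of 3 higher and 0 lower. Pf4 alone gave 51.1 of the 56.7 CPM of the megakaryocyte markers. The fuller lists ranked lower, the stem and progenitor list 13 and the megakaryocyte list 5. Mast and basophil markers ranked 3, with 0 of 4 called, and T and NK markers 4, with 3 of 5 higher and 0 lower. None of the fixed markers of any type was among the 10 genes with the largest ratios in cluster 13, so the cluster is called by its number and given no cell type name. Gata1 and Cd79a, a defining gene of each lineage, were not matched in the table by name and are not analysed here.

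**Figure D2:**
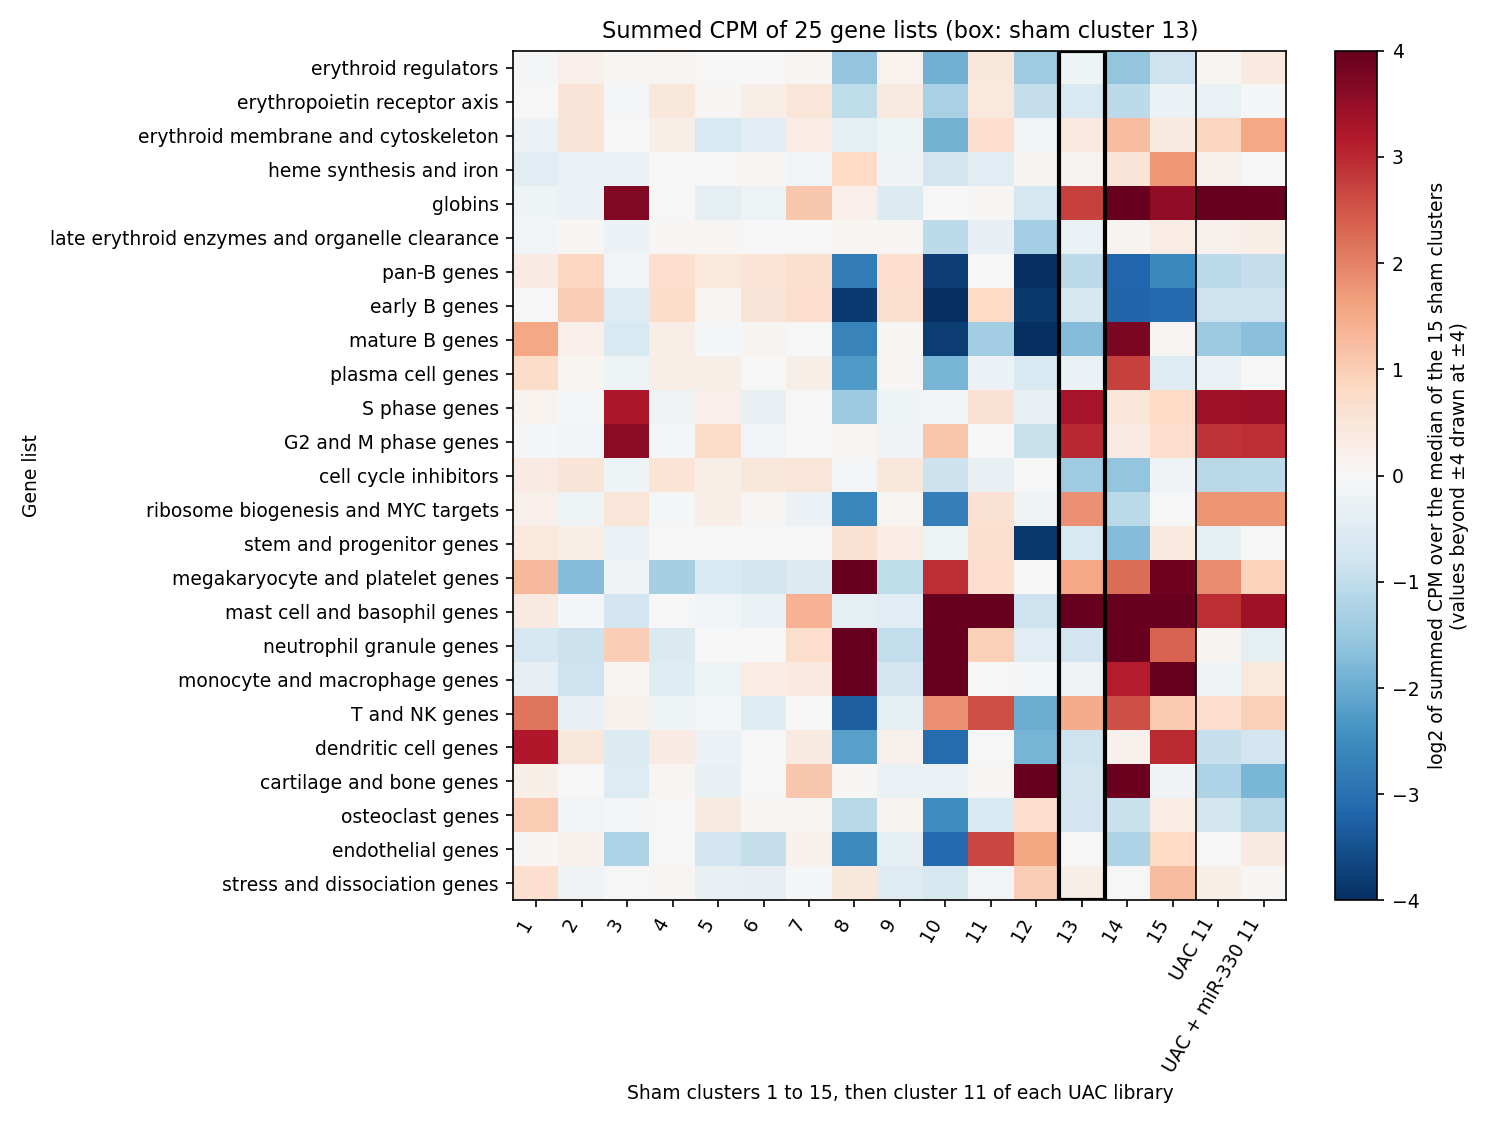
Summed CPM of 25 gene lists in each sham cluster and in cluster 11 of both UAC libraries, as log2 over the median of the 15 sham clusters, clipped at 4 in either direction. Among the sham clusters, cluster 13 has the highest sums of the S phase and ribosome biogenesis lists and the lowest sum of the cartilage and bone list.

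The regulators of the erythroid lineage did not move as 1 group. Of 19 regulators 6 were called higher and 3 lower, with a median ratio of 0.19, and the list's summed level ranked 10 of 15. Against the median of the 14 clusters 9 were higher and 1 lower, with a median of 0.62. Gfi1b, a repressor needed for red cell and platelet precursors, was at 22.8 CPM (20.1 to 25.7) in cluster 13 against 12.9 (7.89 to 19.9) in cluster 14, and its ratio to the pooled clusters was 4.27. Tal1, a founding factor of the blood lineages, had a ratio of 3.75, with 15.3 CPM (13.1 to 17.7) in cluster 13 and 11.6 (6.89 to 18.4) in cluster 14. The intervals of clusters 13 and 14 overlap for Tal1 and are narrowly apart for Gfi1b. Hemgn, a nuclear protein of erythroid cells, was higher at 2.69, whereas Myb, which many blood progenitors express, was near the pooled level at 0.19. The 3 lower genes, named after their values were seen, were Foxo3, Nfe2 and Sox6, and of these Nfe2 (−2.04 to 1.45) and Sox6 (−2.65 to 3.04) reverse against the median of the 14 clusters.

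The erythropoietin receptor list had 4 genes higher and 4 lower of 15, with a median of 0.10. Its summed level ranked 11 of the 15 clusters. Against the median of the 14 clusters 5 were higher and 3 lower, with a median of 0.87. Tfr2, a transferrin receptor that associates with the erythropoietin receptor, was at 9.88 CPM (8.14 to 11.9) in cluster 13, and its next level was only 1.12 (0.451 to 2.31), in cluster 1. Tfrc, which takes up iron-loaded transferrin, was at 84.3 CPM (79.0 to 89.8), with cluster 14 at 80.0 (66.6 to 95.4). Of the receptor's signalling genes named here, only Stat5b was called, as lower. It is 1 of the list's 4 lower genes, so the genes named do not stand for the whole list. Jak2, its kinase, had a ratio of −0.52, and of the transcription factors it activates Stat5b had −1.16 and Stat5a 0.73. The feedback inhibitors Socs2 and Cish had −0.05 and 0.86.

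Membrane and heme genes were the erythroid groups with most members called higher. Of 21 membrane and cytoskeleton genes 14 were higher and 3 lower, with a median of 1.53, and the list's summed level ranked 4 of 15. Rhag, a gas channel of the Rh complex, was at 21.0 CPM (18.4 to 23.8) and Sptb, a spectrin chain, at 19.0 (16.5 to 21.7), both below cluster 14 with 64.5 and 40.7. Tspo2, a cholesterol-binding membrane protein of erythroid cells, had 72 of its 95 UMIs in cluster 13, yet its level of 6.35 CPM was not above that of cluster 14 with 12.3 (7.38 to 19.2). Slc4a1, the anion exchanger of the finished red cell, was at 10.4 CPM (8.62 to 12.5) against 134 in cluster 14. Its ratio was 0.86, not called, but 4.40 against the median of the 14 clusters. Of 25 heme and iron genes 12 were higher and 2 lower, with a median of 0.98, and the list's summed level ranked 5 of 15. Alad, which catalyses an early step of heme synthesis, had a ratio of 2.36, and Blvrb, a heme-breakdown reductase abundant in red cells, 2.24. Alas2, the erythroid enzyme of the first step, was instead lower at 2.38 CPM (1.57 to 3.47) and a ratio of −2.70, a direction that reverses to 1.90 against the median of the 14 clusters. Clusters 14, 3 and 15, with 563, 10.4 and 7.09 CPM, lay above it.

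Among the enzymes of late erythroid cells, 6 of 22 were higher and 5 lower, with a median of 0.09, and the list's summed level ranked 12 of 15. The leading genes were nevertheless among the most confined to the cluster. Car1, a carbonic anhydrase that red cells use to carry carbon dioxide, was at 526 CPM (513 to 540) in cluster 13 and 54.9 (43.8 to 67.8) in cluster 14. Of its UMIs in the library 91.3% (90.6 to 92.0) lay in cluster 13. Car2, a second red cell carbonic anhydrase, was at 355 CPM (344 to 366), below cluster 14 with 591 (553 to 630). Pklr, the pyruvate kinase of red cells and liver, had 85 of its 99 UMIs in cluster 13. Car1 and Car2 thus sit on opposite sides of cluster 14.

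The globins separated most sharply. Hbe1, an embryonic beta-like globin, was at 27.0 CPM (24.1 to 30.2), with 306 of the library's 319 UMIs and 95.9% (93.1 to 97.8) of them in cluster 13. No other cluster had more than 3 UMIs, and cluster 14, with the most adult globin RNA, had 0. Hba-a1, an adult alpha globin, was at 263 CPM (253 to 272), against 50471 in cluster 14 and 828 in cluster 3. Of 6 genes tested of the globin list, which includes the globin chaperone Ahsp, Hbe1 and Ahsp were higher and 4 globins lower, and their median was −2.26 against the pooled clusters but reverses to 2.36 against the median of the 14 clusters, as do Hba-a1 (−2.43 to 2.11) and Hba-a2 (−2.09 to 2.62) but not Hbb (−3.34 to −0.28) and Hba-a3 (−4.55 to −0.67). Both statements hold at once: cluster 13 ranked 4 of 15 in summed globin level, far below cluster 14 with 75766 CPM. Ahsp, which binds free alpha globin, was at 206 CPM (198 to 215), with 833 in cluster 14.

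Ratios between genes of the same cluster, chosen after the values were seen, show how the erythroid RNA of clusters 13 and 14 differs in make-up. Per 100 Klf1 UMIs, cluster 13 had 27.2 Epor UMIs (22.0 to 33.4) and cluster 14 had 21.3 (11.6 to 36.9), a difference within counting error. Per 100 Klf1 UMIs, it had 1365 Car1 UMIs (1239 to 1508) against 113 (82.1 to 157) in cluster 14. For Gfi1b the ratio was 59.0 (50.4 to 69.0) against 26.7 (15.4 to 44.1). For the genes of filling and finishing the order turned: 681 Hba-a1 UMIs (616 to 755) against 104257 in cluster 14, and 6.18 Alas2 UMIs (4.03 to 9.12) against 1164. Relative to Klf1, cluster 13 was rich in Car1 and Gfi1b and poor in adult globin and Alas2.

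The sequence around the start of the leading erythroid genes was read for AGATAA and CACCC on both strands. CACCC is bound by the erythroid factor KLF1, and AGATAA is 1 form of the letters that the erythroid factor GATA1 binds. Promoters are RefSeq sequences of assembly GRCr8 from 250 bases before to 50 after the gene's start. Of all 33469 promoters AGATAA was in 11.6% and CACCC in 54.9%. The 5 leading erythroid genes are Hbe1, Car1, Pklr, Tfr2 and Gfi1b, of which 4 were matched, and Klf1 and Epor were added as markers of the label. Hbe1 held neither motif, Pklr, Tfr2, Gfi1b and Klf1 held 1 CACCC each, and Epor held 2 CACCC and 1 AGATAA, here read as TTATCT. Another form of the GATA1 letters, TGATAA, was not counted over all promoters. It does occur, on 1 strand or the other, in the promoters of Hbe1, Klf1 and Gfi1b, outside the stretches shown. Epor is thus not the only gene of these with GATA letters. The match of Pklr lies after the start, within the transcribed part, and the others before it. Pklr is a gene of both red cells and liver, and only 1 start of it was read. Whether red cells use that start was not tested, so the Pklr stretch cannot be taken as red cell promoter sequence. A match is a description of letters and no evidence of binding. The stretches around the matches are shown because these genes mark the cluster, on the gene's own strand with the matches in capitals, at chr8:28770416-28770547 (minus strand) for Epor, chr19:40158690-40158724 (minus) for Klf1, chr3:32351102-32351136 (minus) for Gfi1b, chr12:24761397-24761431 (minus) for Tfr2 and chr2:176841284-176841313 (plus) for Pklr.
Epor: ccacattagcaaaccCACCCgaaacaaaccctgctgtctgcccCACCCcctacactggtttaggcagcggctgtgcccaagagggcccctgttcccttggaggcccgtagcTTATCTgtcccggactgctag
Klf1: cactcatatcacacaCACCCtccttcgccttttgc
Gfi1b: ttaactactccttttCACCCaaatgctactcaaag
Tfr2: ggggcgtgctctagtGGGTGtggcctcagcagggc
Pklr: aggtgcttctaaaccGGGTGctctactgag

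The B genes that run through the whole lineage were present below the level of the B clusters. Of 19 pan-B genes 0 were called higher and 6 lower, with a median of −0.77, or 1 higher and 12 lower, with a median of −1.12, against the median of the 14 clusters. Their summed level of 8423 CPM (8370 to 8477) ranked 10 of 15, below cluster 3 with 16226 and cluster 11 with 17410, and above the 5 clusters poor in B genes, which ran from 967 to 2889. Ebf1, the factor that commits cells to the B lineage, was at 4062 CPM (4025 to 4099), with 7993 in cluster 3, 11083 in cluster 11 and at most 784 in the clusters poor in B genes. Blnk, an adaptor of B cell receptor signalling, had a ratio of −0.74, and Pax5, the factor that maintains B identity, −0.77. Cd24, a surface protein high on early B cells and on erythroid precursors, was the highest of the list at 0.70.

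Genes of the early B stages went to both extremes. Of 19 early B genes 6 were higher and 9 lower, with a median of −0.97 against the pooled clusters that changes sign to 0.88 against the median of the 14 clusters. Igll1, a chain of the surrogate light chain, was at 1166 CPM (1147 to 1186), below cluster 11 with 1750 (1708 to 1793) and above cluster 3 with 231, and 55.6% (55.0 to 56.2) of its UMIs lay in cluster 13. Its partners Vpreb1 and Vpreb2 had ratios of 2.25 and 2.57, and Lef1, a transcription factor of early lymphocytes, 1.51. Rag1, which cuts the immunoglobulin genes for joining, was at 8.38 CPM (6.78 to 10.2) and a ratio of −3.61. Vpreb3, a relative of both, had a ratio of −2.76, and Bach2, a transcriptional repressor of B cells, −1.98. Dntt, the enzyme that adds bases at the heavy chain joints, was at 109 CPM (103 to 116) against 1522 in cluster 11, the only cluster above it.

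Per 100 Ebf1 UMIs, a comparison chosen after the values were seen, cluster 13 had 28.7 Igll1 UMIs (28.2 to 29.3), cluster 11 had 15.8 and cluster 3 had 2.89. For Vpreb2 these ratios were 17.5, 15.1 and 0.951, and for Dntt 2.69, 13.7 and 0.232. Relative to Ebf1, then, cluster 13 carried more Igll1 and Vpreb2 RNA than cluster 11 or cluster 3, and less Dntt than cluster 11. Cd79b stood at 5.04 per 100 Ebf1 UMIs in cluster 13, 4.66 in cluster 11 and 8.13 in cluster 3, so relative to Ebf1 it was near the level of cluster 11 and below that of cluster 3.

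Genes of mature B cells were low. Of 16 genes 15 were lower and 1 was higher, with a median of −2.26, or −1.16 with 9 lower against the median of the 14 clusters. Ighm, the heavy chain of IgM, was at 1462 CPM (1440 to 1485) and a ratio of −1.79, and Cd74, which guides antigen-presenting MHC proteins, was at 153 CPM (146 to 160), with 2.08% (1.99 to 2.18) of its UMIs in cluster 13. Cr2, a complement receptor, was the gene called higher, at 1.30. Of 8 plasma cell genes 1 was higher and 3 lower, with a median of −0.23 that is 0.09 against the median of the 14 clusters, and the higher gene was Sdc1, a surface proteoglycan.

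Cell cycle genes were mostly higher. Of 44 genes of S phase, when DNA is copied, all 44 were called higher, with a median of 1.88, and 24 had their highest level of all clusters in cluster 13. Their summed level was 7669 CPM (7619 to 7721), against 7412 in cluster 3 and 1355 in cluster 15, the next. Cluster 13 held 38.7% (38.5 to 38.9) of the library's S phase list UMIs. Of 52 genes of G2 and M phase 44 were higher and 0 lower, with a median of 1.44, but only 5 were highest in cluster 13, and their sum of 18242 CPM (18164 to 18321) lay below cluster 3 with 26753.

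Single genes went both ways. Pcna, the clamp that holds the DNA polymerase, was at 416 CPM (405 to 428) against 349 (339 to 359) in cluster 3, and Dut, which keeps uracil out of DNA, at 1334 (1313 to 1356) against 1224 (1204 to 1243). Ung, which removes uracil from DNA, stood out most, at 72.3 CPM (67.4 to 77.4) against 19.5 (17.1 to 22.0) in cluster 3, with 61.3% (58.6 to 63.9) of its UMIs in cluster 13. Prim1, a DNA primase subunit, was instead lower at 465 (453 to 478) against 604 (590 to 617). Among G2 and M phase genes, Hmgb2, a chromatin protein of dividing cells, was at 4791 CPM against 8240 in cluster 3, but the mitotic cyclin Ccnb1 was at 94.7 (89.1 to 101) against 68.7 (64.3 to 73.4), and Cdc20, which triggers the exit from mitosis, at 108 (102 to 114) against 92.1 (86.9 to 97.5). Per 100 UMIs of the G2 and M phase list, cluster 13 had 42.0 UMIs of the S phase list (41.7 to 42.4) and cluster 3 had 27.7 (27.5 to 27.9), a ratio chosen after the values were seen. Clusters 13 and 3 were the highest of the library in both lists but differed in the balance of the phases.

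The brakes of the cycle were low. Of 15 cell cycle inhibitors 1 was higher and 8 were lower, with a median of −1.21, or −0.68 against the median of the 14 clusters. Btg1, an antiproliferative gene of resting lymphocytes, was at 256 CPM (247 to 265), the lowest of the 15 clusters. The higher gene was Rbl1, a relative of the retinoblastoma protein that dividing cells make, at 1.09.

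Genes for making ribosomes set cluster 13 apart from the other dividing cluster of the sham library, but not from its closest matches in the other libraries. Of 27 ribosome biogenesis and MYC target genes 23 were higher and 0 lower, with a median of 1.79, and 21 had their highest level in cluster 13. The summed level was 7236 CPM (7186 to 7285), against 3117 in cluster 11 and 2867 in cluster 3. Cluster 11 of UAC + Vector AAV and cluster 11 of UAC + miR-330 AAV, compared below, had nearly the same sums, 6933 and 6924 CPM. Against these clusters 0 and 2 of 26 genes were called higher in cluster 13, and 0 lower. Npm1, a nucleolar chaperone, was at 3031 CPM (2999 to 3064) against 1495 in cluster 11. Nhp2 and Gar1, proteins of the complex that modifies ribosomal RNA, had ratios of 2.67 and 2.58, and Hspd1, a mitochondrial chaperone, 2.52. The 10 genes with the most UMIs held 7.77% of the cluster's UMIs, among them Rps2, a ribosomal protein, at 7112 CPM and a ratio of 1.35.

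Progenitor and platelet genes were present at low levels, and cluster 13 ranked 13 of 15 in the sum of the stem and progenitor list. Of 12 stem and progenitor genes 5 were higher and 3 lower, with a median of 0.39, or 8 higher and 2 lower, with a median of 2.69, against the median of the 14 clusters. Kit, the receptor for stem cell factor, was at 15.7 CPM (13.5 to 18.2) against 14.8 (9.41 to 22.3) in cluster 14, and Gata2, a progenitor factor that mast cells keep, at 19.6 (17.1 to 22.3) against 50.3. Cd34, a stem cell surface marker, had 1 of its 16 UMIs in the cluster. Of 7 megakaryocyte and platelet genes 1 was higher and 1 lower, with a median of 0.19, or 4 higher and 0 lower, with a median of 1.09, against the median of the 14 clusters. The gene higher than in the pooled clusters was Pf4, a platelet chemokine, at 51.1 CPM (47.0 to 55.4) against 135 in cluster 15, while Itga2b, a defining platelet integrin, had 12 UMIs and was near the pooled level at 0.07.

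Markers of further blood cells lay beside these, and cluster 13 ranked 5 of 15 in the sums of both the mast cell and the T and NK list. Of 13 mast cell and basophil genes 3 were higher and 6 lower, with a median of −0.92 that changes sign to 2.77 against the median of the 14 clusters, and the summed level was 308 CPM (298 to 318) against 8900 in cluster 14. Mcpt2, a mast cell protease, was the most abundant of them at 134 CPM (127 to 141), with 1201 in cluster 14. Of 17 T and NK genes 5 were higher and 4 lower, with a median of 0.55 and a sum of 225 CPM (216 to 234), and against the median of the 14 clusters 14 were higher and 1 lower, with a median of 2.35. Cd3g, a chain of the T cell receptor complex, was at 74.7 CPM (69.7 to 79.9) against 78.7 in cluster 11, and Lck, its kinase, at 51.4 (47.4 to 55.8) against 85.6. Gzmbl3, a granzyme gene, had 140 of its 146 UMIs in cluster 13, and its ratio of 6.98 was second only to Hbe1. The part of such RNA, of doublets (droplets with more than 1 cell) or of RNA free in the droplets in the make-up of cluster 13 was not tested.

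Most myeloid, stromal and vessel genes were lower than in the pooled clusters, fewer of them against the median of the 14 clusters. Of 22 neutrophil granule genes 18 were lower and 1 higher, with a median of −5.26, or −0.78 with 5 higher and 8 lower against the median of the 14 clusters, and the higher gene against the pooled clusters was Prtn3, a protease of the promyelocyte stage, at 1.03. S100a9, the most abundant neutrophil marker, was at 370 CPM against 212497 in cluster 10. Of 19 monocyte and macrophage genes 18 were lower and 0 higher, with a median of −3.38 against the pooled clusters, and −0.07 with 5 higher and 4 lower against the median of the 14 clusters. All 19 cartilage and bone genes were lower, with a median of −5.91, which shrinks to −0.70 with 4 lower and 1 higher against the median of the 14 clusters, and their sum of 235 CPM was the lowest of the library. Col2a1, the collagen of cartilage, was at 23.8 CPM (21.1 to 26.8), with 27180 in cluster 12. Of 10 endothelial genes 6 were lower and 0 higher, with a median of −2.96, or −1.89 with the 3 genes at 0 UMIs set to their bound. That median was −1.12 with 5 UMIs added, and −0.25 with 3 higher and 4 lower against the median of the 14 clusters.

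The medians of the remaining lists were low against the pooled clusters and near 0 against the median of the 14 clusters. Of 11 dendritic cell genes 1 was higher and 5 lower, with a median of −0.96, or 0.07 against the median of the 14 clusters. Of 7 osteoclast genes 1 was higher and 2 lower, shares near those of all genes, with a median of −0.87, or 0.22 against the median of the 14 clusters. The higher one was Atp6v0d2, a proton pump subunit, with 52 UMIs, while Ctsk, the protease with which osteoclasts digest bone collagen, was lower at −2.50, or at 0.22 and not called against the median of the 14 clusters. Of 14 stress and dissociation genes 1 was higher and 8 lower, with a median of −1.62, or −0.21 with 4 lower against the median of the 14 clusters, and the higher one was the chaperone gene Hspa8 at 1.26.

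Across all genes, the 20 largest ratios held erythroid genes, the osteoclast gene Atp6v0d2 and genes of no list, 2 of them with names that are only locus numbers. The 5 largest were Hbe1 at 7.05, Gzmbl3 at 6.98, Car1 at 5.95, Tcf15, a transcription factor, at 5.91, and Akr7a3, an aldehyde reductase, at 5.12. Hmga2, a chromatin protein of fetal and progenitor cells, was also among the 20, with 172 of its 203 UMIs in the cluster. Of the 10 smallest ratios 9 belonged to genes with 0 UMIs in cluster 13, for which a floor of 3 counts gives a bound. Colgalt2, a collagen-modifying enzyme, was at least 99.9-fold lower, and Prrx1, a factor of limb and jaw mesenchyme, at least 53.0-fold lower. Col5a2, a fibrillar collagen, had 3 of the library's 9906 UMIs. In all, 264 of the genes tested had 0 UMIs in cluster 13.

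Against cluster 3 alone, over 10188 genes with at least 50 UMIs in the pair, 883 genes (8.67%) were higher in cluster 13 and 611 (6%) lower, with a median of −0.07. Few cell cycle genes were called, with 1 of 44 S phase genes higher (median 0.07) and 1 of 52 G2 and M phase genes lower (median −0.54). More ribosome biogenesis genes were, with 18 of 26 higher and 0 lower and a median of 1.36, and more erythroid membrane genes, with 9 of 18 higher and 0 lower and a median of 0.96. The medians of the mast cell (5.64), stem and progenitor (2.51) and T and NK (1.67) lists were larger, but a gene can pass this minimum through cluster 13 alone, as Cpa3 does with 5 UMIs in cluster 3 and 476 in cluster 13. With 50 UMIs asked of cluster 3 itself, an alternative chosen after seeing the data, 16 of 24 ribosome biogenesis and 6 of 13 membrane genes were higher and 0 lower, with medians of 1.35 and 0.78, beside 485 of all 9097 genes. Of the other lists named, 0 mast cell, 3 stem and progenitor and 2 T and NK genes were then left, too few to describe. Of 19 pan-B genes 0 were higher and 7 lower, while 10 of 18 early B genes were higher and 8 lower, or 8 and 8 of 16 with 50 UMIs in cluster 3. The genes higher than in cluster 3 had their highest other level in cluster 12 for 243 (27.5%), cluster 11 for 235 (26.6%), cluster 15 for 141 (16.0%) and cluster 14 for 75 (8.49%).

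Whole profiles were compared by correlation of log2(CPM + 1) over the 12956 genes, which describes likeness across genes that are not independent replicates and share libraries. Within the sham library, cluster 3 was most like cluster 13 (Spearman 0.960, Pearson 0.961), followed by cluster 5 (0.893 and 0.899) and cluster 11 (0.890 and 0.896), and cluster 14 ranked 10 of 14 (0.812 and 0.808). The least alike was cluster 12 (0.628 and 0.633). Among all clusters of the series, the most like were those numbered 11 in UAC + Vector AAV (0.991 and 0.991) and in UAC + miR-330 AAV (0.977 and 0.978). Each library was clustered alone, so equal numbers mean nothing, and sham cluster 11 is another cluster.

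**Figure D3:**
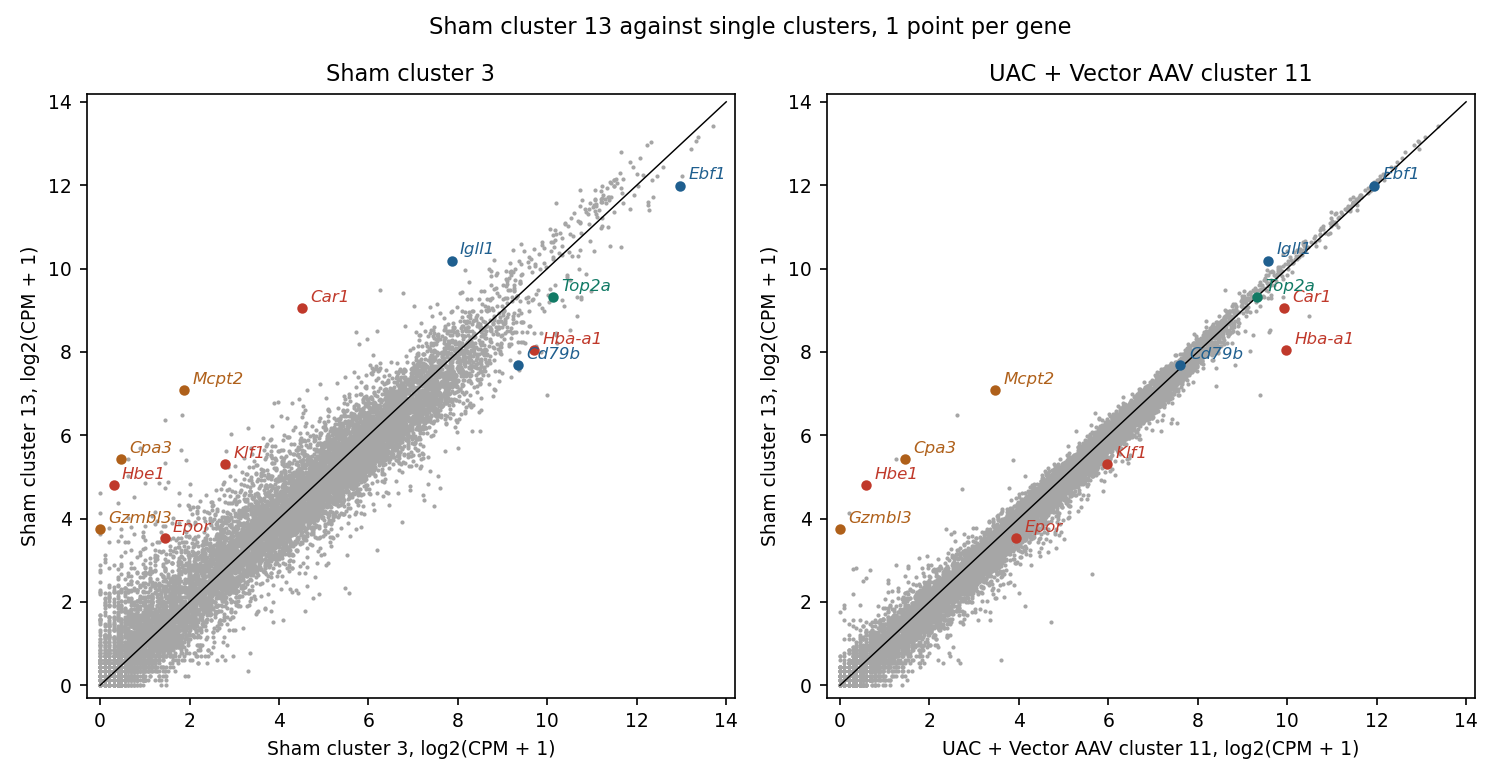
Log2(CPM + 1) of each gene in sham cluster 13 against sham cluster 3 and against cluster 11 of the UAC + Vector AAV library, 1 point per gene over 12956 genes. The points lie closer to the diagonal for the UAC cluster (Pearson 0.991) than for sham cluster 3 (0.961).

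A least squares mixture with coefficients of 0 or more drew mostly on cluster 3. The profile of cluster 13, over 12839 genes without globin, immunoglobulin, mitochondrial and ribosomal protein genes, was fitted by 76.6% of cluster 3, 18.2% of cluster 11, 3.12% of cluster 15, 1.79% of cluster 12 and 0.285% of cluster 14, while cluster 5, second by correlation, took 0%. The clusters counted as B-lineage, those with a summed pan-B level at or above the median of 17410 CPM, thus took 18.2%, all of it from cluster 11, while cluster 3 with 16226 CPM fell just outside that rule. The outside clusters chosen as erythroid references took 0%, but they do not measure an erythroid share. The rule picked cluster 8 of UAC + Vector AAV and cluster 6 of UAC + miR-330 AAV, both rich in ferritin RNA, and these had 149013 and 124494 CPM of the neutrophil gene S100a9 and only 0.903 and 0.410 CPM of Klf1. These percentages describe the fit and not cell numbers.

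The matching clusters of the other libraries held similar shares of UMIs, 14.9% in UAC + Vector AAV and 15.8% in UAC + miR-330 AAV. They are the clusters most like cluster 13 by correlation over the same genes, so shared features follow in part from that choice. With 1 library per group, no difference between them can be tested or ascribed to the treatment. Against the UAC + Vector AAV cluster, over 10451 genes, 46 (0.44%) were higher in sham cluster 13 and 194 (1.86%) lower, with a median of −0.10. Against the UAC + miR-330 AAV cluster, over 10630 genes, 97 (0.913%) were higher and 921 (8.66%) lower, with a median of −0.25.

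The erythroid genes called were mostly lower in the sham cluster, to be read beside the 1.86% and 8.66% of all genes that were lower. Other lists went the same way. Of 17 neutrophil granule genes 7 were lower and 2 higher than in UAC + Vector AAV. Against UAC + miR-330 AAV 5 of 18 neutrophil granule genes were lower and 0 higher. There 4 of 10 stem and progenitor genes were lower and 1 higher, and 3 of 10 dendritic cell genes lower and 0 higher. Epor, called in neither comparison, was at 10.5 CPM (8.70 to 12.6) in sham, 14.3 (12.4 to 16.5) in UAC + Vector AAV and 18.9 (16.8 to 21.2) in UAC + miR-330 AAV. The intervals of sham and UAC + Vector AAV overlap, and that of UAC + miR-330 AAV lies above both. Klf1 followed the same order, at 38.6, 61.5 (57.4 to 65.8) and 81.8 CPM (77.4 to 86.5), and so did Hba-a1 at 263, 1001 and 1988. The ratio of Epor to Klf1 did not move beyond counting error, at 27.2, 23.3 (19.8 to 27.2) and 23.1 (20.3 to 26.3) per 100. Of 22 membrane genes 9 were lower in sham than in UAC + Vector AAV and 16 lower than in UAC + miR-330 AAV, and 0 were higher in either comparison. Of 19 erythroid regulators 2 and 9 were lower, of 25 heme and iron genes 2 and 5, of 22 late enzymes 2 and 4, and of 14 receptor genes 1 and 2. Car1 did not keep this order, at 526, 970 (953 to 986) and 887 CPM (872 to 902).

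Hbe1 ran against the other erythroid genes. Its 27.0 CPM (24.1 to 30.2) in the sham cluster stood against 0.509 (0.205 to 1.05) and 0.326 (0.106 to 0.762), from 7 and 5 UMIs. The whole UAC + Vector AAV library had 8 Hbe1 UMIs and the UAC + miR-330 AAV library 13, so the gene with the largest ratio in cluster 13 had few UMIs in either of the other pools. Each pool mixed the condyles of several rats, which cannot be told apart.

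Few B and cell cycle genes were called. Of 19 pan-B genes 0 were called in either comparison, and of 18 early B genes 0 were called against UAC + Vector AAV and 1 higher and 1 lower against UAC + miR-330 AAV. Igll1 was at 1166, 758 (743 to 772) and 611 CPM (599 to 623), with all 3 intervals apart, Vpreb2 at 712 (697 to 728), 390 (379 to 400) and 288 (279 to 296), Vpreb1 in another order at 135 (129 to 142), 202 (194 to 209) and 145 (139 to 151), and Cd79b at 205, 195 (188 to 202) and 140 (134 to 146). Vpreb2 was called higher than in UAC + miR-330 AAV. Of 44 S phase genes 0 and 2 were lower. Of the G2 and M phase genes 0 of 52 and 3 of 53 were lower, and none of either list was higher. Top2a was at 633, 639 (626 to 653) and 963 CPM (947 to 978), level between sham and UAC + Vector AAV within counting error.

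Some mast cell and cartilage genes, Epx and Gzmbl3 were higher in the sham cluster. Of 8 mast cell and basophil genes 4 were higher than in UAC + Vector AAV and 0 lower, with a median of 1.87, and 3 of 7 were higher and 1 lower than in UAC + miR-330 AAV. With 50 UMIs asked of the UAC cluster itself, 1 of 5 and 1 of 4 were higher, with medians of −0.50 and −0.38, so the mast cell counts rest mostly on genes nearly absent from the UAC clusters. Of 12 T and NK genes 7 were higher than in UAC + Vector AAV and 0 lower, with a median of 1.04, but only 2 of 13 higher than in UAC + miR-330 AAV, with a median of 0.37, and 1 of 5 and 1 of 9 under the stricter minimum. Mcpt2 was at 134 CPM in sham, 10.1 (8.49 to 11.9) in UAC + Vector AAV and 15.3 (13.4 to 17.4) in UAC + miR-330 AAV. Cpa3, a mast cell carboxypeptidase, was at 42.0 (38.3 to 46.0), 1.74 and 3.13 CPM. Epx, the peroxidase of eosinophils, named after its values were seen, had 188 UMIs in the sham cluster, 2 in UAC + Vector AAV and 0 in UAC + miR-330 AAV. Gzmbl3 had 140 UMIs in the sham cluster and 0 in each of the others, although those libraries held 354 and 173 Gzmbl3 UMIs elsewhere. Within the sham library Mcpt2, Cpa3 and Epx were highest in cluster 14. Of 12 cartilage and bone genes 8 were higher in the sham cluster than in UAC + miR-330 AAV and 0 lower, with a median of 1.15, and 1 was higher than in UAC + Vector AAV, with a median of 0.41. Under the stricter minimum these were 4 of 8 and 0 of 10.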

How the data were processed

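The deposited values used are the authors' mean counts per cluster, a signal in which every cluster's UMIs were scaled by a constant of that cluster. The labels name Cell Ranger 7.0 and STAR, and the tables have the layout of its graph-based clustering of 1 library. The authors' log2 fold changes and adjusted p-values, which compare a cluster with the rest of its library, were not used. The submitters' notes list a human and a mouse build and none of the rat, so the build behind these tables is not known and genes were matched by the tables' names only. Means divided by the smallest positive mean of their column gave whole numbers within 1e-06 for 100% of values, taken as UMIs. Depth was 77668015 UMIs in the sham library (1352666 to 12790589 per cluster), 92629658 in UAC + Vector AAV and 97255383 in UAC + miR-330 AAV. Identifiers with 1 name were added, which left 19241 names in the sham library.

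Python 3.11.15, numpy 2.4.6, pandas 2.3.3, scipy 1.17.1 and matplotlib 3.10.9 were used, and the calculation was checked on simulated data. The mixture was a non-negative least squares fit weighted by 1 over the square root of the mean CPM. With 1 library per group no test, p-value or standard error was computed. The cluster, markers and lists were chosen with earlier results of these data known. The 25 lists hold 524 genes, of which 482 were matched by name, 31 of them with fewer than 50 UMIs. Genes named are the label's markers, per list the 4 with the most UMIs and the 3 with the largest ratios, the 20 largest and 10 smallest ratios, the 10 with the most UMIs, and those with over 50% of UMIs in cluster 13. Alas2, Slc4a1, Hbb, Hba-a3, Stat5a, Cish, Foxo3, Nfe2, Sox6, Pax5, Vpreb3, Rag1, Dntt, Cd34, Itga2b and Epx, and the ratios between genes, were added after their values were seen. Alternatives were other UMI minimums, additions, references, scalings, weights and sets of fitted genes. Barcodes and sequencing reads were not analysed here, doublets were not treated and free RNA was not subtracted.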

Additional observations from a re-analysis of the deposited data

How the results depend on the processing

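The genes called higher numbered 1904, and 3105 with no UMI minimum or 3130 against the median CPM of the other 14 clusters. The genes called lower numbered 3168, and 1804 with at least 500 UMIs, where fewer genes are tested, or 2023 against the median reference. Other settings kept both counts within 1.5 times. The UMI share was 13.4% once haemoglobin, immunoglobulin, ribosomal protein and mitochondrial genes were left out. The B-lineage share of the mixture was 7.77% without weights, 11.1% on the square root of CPM and 22.8% with all genes kept. With outside references chosen without the ferritin genes, an alternative chosen after seeing the data, the rule took cluster 11 of both UAC libraries, the erythroid share became 98.1% and the B-lineage share 0%. Those references hold B and cell cycle RNA as well, so 98.1% is no measure of erythroid RNA. With sham clusters only, the erythroid share has no value. The globin median reversed to 2.36 against the median reference. A later choice asked 50 UMIs of the other cluster alone. The mast cell median against UAC + Vector AAV then reversed to −0.50, over 5 genes. The stem and progenitor median against cluster 3 became −0.46, but over 3 genes, too few to describe. Apart from the stated reasons, the cause was not tested. Correlations with cluster 3 stayed between 0.960 and 0.962 under both alternatives. Of 167 called genes named by the rule, the median reference left 15 uncalled and reversed 6, with 19 newly called, and 5 added UMIs left 1 uncalled. Alas2, Nfe2 and Sox6, named later, also reversed. No paired analysis was possible because each group is 1 pooled library. Depth limits genes of few UMIs, such as Epor, and intervals cover counting error only.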
